A study of Mus musculus with 12 samples.

Results

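The genes described here encode autotaxin (Enpp2) and the receptors for its product, Lpar1, Lpar2, Lpar3, Lpar4 and Lpar6. They are 6 of the 19439 gene entries in a table of RNA sequencing values from 3T3 mouse embryonic fibroblasts, and were selected on their RPKM levels, because Enpp2 separates the 2 lines in that table. For that reason, differences of these genes between the lines are given as a description, with no test. The 4 groups were p53-null (p53 -/-) cells in glutamine-free medium, p53-null cells in complete medium, wild-type p53 (WT) cells in glutamine-free medium and WT cells in complete medium, with 3 libraries each. Both lines had been grown in DMEM, a standard culture medium, with 25 mM glucose and 2 mM glutamine, and then spent 18 h either without glutamine or with 2 mM glutamine (complete). Levels are RPKM, reads divided by the gene's length and by the library's mapped reads, so levels of different genes can be set side by side as far as the authors' gene lengths hold. Each genotype is 1 line, so p53 status and any other difference between the lines cannot be told apart.

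Autotaxin is a secreted lysophospholipase D that cuts lysophosphatidylcholine outside the cell into lysophosphatidic acid (LPA), a lipid that drives migration, contraction and proliferation of fibroblasts. LPA acts through G protein-coupled receptors of separate descent: LPA1, LPA2 and LPA3 belong to the EDG family, together with the sphingosine 1-phosphate (S1P) receptors, while LPA4, LPA5 and LPA6 are closer to the P2Y purine receptors. The receptors couple to several G proteins, and their signals reach the transcription factors SRF and YAP.

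The RPKM sum was 284426 to 319735 per library, and 10306 to 10671 genes reached 1 RPKM. The deposited table does not give read totals, so the depth is not known here, and precision is given as the SD over the 3 libraries of a group. The labels do not say that these were separate cultures, so the p-values reflect library spread alone, and that spread may be technical. Trp53, the gene named in the genotype, averaged 34.6 ± 0.614 RPKM in p53-null and 112 ± 2.22 RPKM in WT cells without glutamine, and 28.8 ± 0.873 RPKM in p53-null and 58.5 ± 0.585 RPKM in WT cells in complete medium (SD, n = 3 each). It was lower in every p53-null than in every WT library but not absent, and a value per gene does not check the allele. Of 9 fibroblast markers, 8 reached 1 RPKM in each of the 4 groups.

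Enpp2 was at most 0.397 RPKM in the p53-null line and among the most abundant transcripts of the WT line, and it was lower without glutamine in both. The gene lies on chromosome 15 at 54838901 to 54952892 (minus strand, mm10). It had 0.0320, 0.0343 and 0.0382 RPKM in p53-null libraries without glutamine and 0.397, 0.320 and 0.366 RPKM in p53-null libraries in complete medium. In WT cells it had 198, 197 and 198 RPKM without glutamine and 486, 480.2 and 482 RPKM in complete medium. The 4 groups did not overlap, and every p53-null library lay below every WT library. In bulk RNA, fewer cells with a transcript and less of it per cell cannot be told apart. The p53-null mean was 0.0176% of the WT mean without glutamine and 0.0748% in complete medium. Ranked from the highest of the 19439 entries, Enpp2 stood at 13848 to 14031 in p53-null and 197 to 199 in WT libraries without glutamine, and at 11622 to 11830 in p53-null and 82 to 84 in WT libraries in complete medium.

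**Figure D1:**
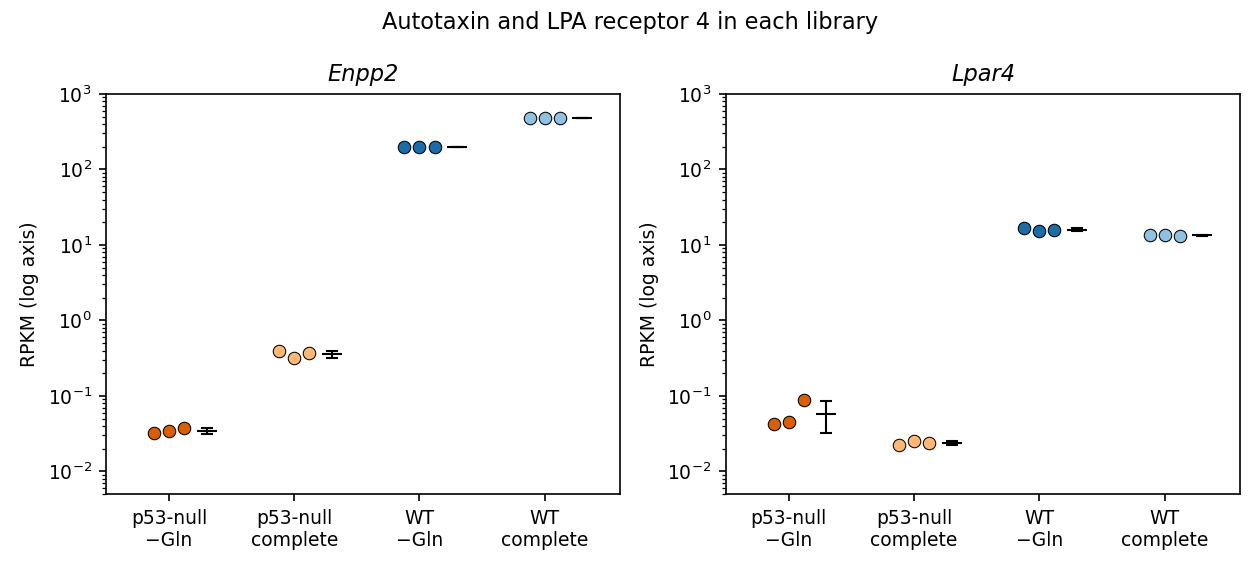
RPKM (log axis) of Enpp2 and Lpar4 in each of the 12 libraries; points are libraries, and the lines beside them mark the group mean and SD (-Gln is glutamine-free). Both genes lie at 0.397 RPKM or below in p53-null libraries and at 13.1 RPKM or above in WT libraries.

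In the p53-null line, where the level was already low, Enpp2 fell to 9.65% of its complete-medium value, a log2 change of -0.39 ± 0.020 (SE; limma on log2(RPKM + 1), adjusted p = 8.95e-10). In WT cells Enpp2 fell to 40.9% of its complete-medium level without glutamine, a log2 change of -1.28 ± 0.020 (limma, adjusted p = 2.26e-15). Which line had the larger response depends on the scale, since the p53-null levels lie under the 1 RPKM that is added before taking logs. The difference of the responses, p53-null minus WT, was 0.89 on the log2(RPKM + 1) scale and -0.48 with 0.1 added in place of 1, so no direction is read from it. Enpp2 passed the filter on low values through its WT libraries alone. Its p53-null p-value is thus for a gene under 1 RPKM in every library compared, and is not read as support.

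The line difference of Enpp2 stood beside other differences between the lines. The summed level of the epithelial marker list was 82.5 to 84.7 RPKM in p53-null and 0.0691 to 0.129 RPKM in WT libraries without glutamine, and 77.3 to 78.6 RPKM in p53-null and 0.216 to 0.252 RPKM in WT libraries in complete medium. Of its 6 genes in the table, 2 reached 1 RPKM in p53-null cells, and Epcam and Cdh1 were under 0.1 RPKM in all groups. The summed fibroblast list was 1429 to 1454 RPKM in p53-null and 811 to 820.03 RPKM in WT libraries without glutamine, and 2484 to 2523 RPKM in p53-null and 3652 to 3672 RPKM in WT libraries in complete medium. Vim alone averaged 770.4 RPKM in p53-null and 72.3 RPKM in WT cells without glutamine, while the median log2 line difference of the 8 tested fibroblast genes was -0.24 without glutamine and -1.26 in complete medium. Adipocytes are a known source of autotaxin, and their defining genes Adipoq, Plin1, Cidec and Lep were under 0.1 RPKM in all 4 groups. The 8 adipocyte genes summed to 23.2 to 24.1 RPKM in p53-null libraries without glutamine and 21.9 to 22.7 RPKM in complete medium, most of it Lpl at 21.9 and 18.5 RPKM. In WT libraries they summed to 1.65 to 2.24 RPKM without glutamine and 23.8 to 25.6 RPKM in complete medium, where Fabp4 averaged 22.7 RPKM. The part of these markers in the Enpp2 result was not tested.

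Around Enpp2, Tnfrsf11b was likewise near 0 in the p53-null line, and the other 5 tested genes within 1 Mb were not. The annotation places 6 other tested genes with their start within 1 Mb of the Enpp2 start. Tnfrsf11b, which encodes the decoy receptor osteoprotegerin, has an offset of -674.4 kb, toward lower coordinates, and averaged 0.0161 RPKM in p53-null and 3.94 RPKM in WT cells without glutamine, and 0.0892 RPKM in p53-null and 29.0 RPKM in WT cells in complete medium. The p53-null mean of Tnfrsf11b was 0.410% of the WT mean without glutamine and 0.308% in complete medium. Its log2(RPKM + 1) line differences, p53-null minus WT, were -2.28 without glutamine and -4.78 in complete medium, and with p53-null levels near 0 their size follows the WT level. Those of Taf2, Dscc1, Deptor, Mtbp and Mrpl13 ran between -0.59 and 1.35 without glutamine and between -0.07 and 0.78 in complete medium, against -7.58 and -8.47 for Enpp2 itself. The median over all 11461 genes tested was 0.10 without glutamine and 0.053 in complete medium.

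**Figure D2:**
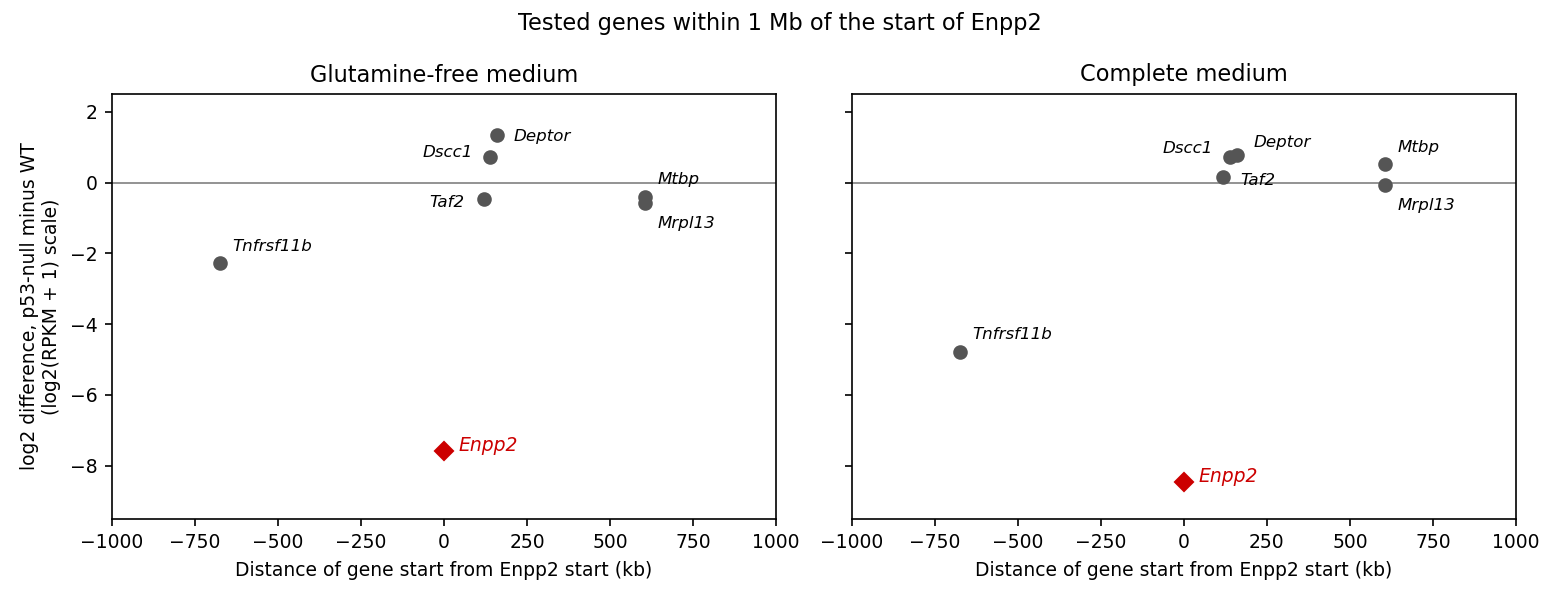
Log2 difference, p53-null minus WT (log2(RPKM + 1) scale), of Enpp2 and the 6 other tested genes within 1 Mb, by distance of the gene start in kb, in glutamine-free medium (left) and complete medium (right). Enpp2 lies lowest in both panels, Tnfrsf11b next, and the other 5 genes lie between -0.59 and 1.35.

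Lpar1, the first LPA receptor described and a main receptor of fibroblasts, fell without glutamine in WT cells and did not pass the test in p53-null cells. RefSeq lists 3 start sites for it in GRCm38.p6, whose windows of 300 bases hold 14, 37 and 3 CpG. The window with the most CpG, 4:58553244-58553543 (minus strand), is shown as an example of a CpG-rich promoter, chosen after the CpG were counted. Capitals mark a GC box, GGGCGG or its reverse complement, which 35.7% of 32851 mouse promoters of that length hold on either strand.
Lpar1: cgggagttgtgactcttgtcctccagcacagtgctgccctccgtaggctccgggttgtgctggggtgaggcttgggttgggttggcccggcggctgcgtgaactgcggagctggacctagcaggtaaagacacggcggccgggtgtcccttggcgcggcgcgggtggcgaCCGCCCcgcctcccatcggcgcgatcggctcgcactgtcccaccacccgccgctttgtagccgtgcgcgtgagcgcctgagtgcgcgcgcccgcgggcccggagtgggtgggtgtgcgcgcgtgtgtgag
The median over all promoters is 7 CpG. The window with 14 CpG also holds 1 GC box, and the one with 3 CpG, at 4:58499354-58499653, holds 1 CCAAT box.

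Lpar1 (chromosome 4, 58435255 to 58553898, minus strand) had 3.57, 3.46 and 3.48 RPKM in p53-null libraries without glutamine and 3.55, 3.62 and 3.82 RPKM in p53-null libraries in complete medium. In WT cells it had 2.30, 1.90 and 2.01 RPKM without glutamine and 11.8, 12.01 and 11.2 RPKM in complete medium. The WT groups were far apart, while the p53-null groups overlapped. In p53-null cells the log2 change was -0.05, with a 95% interval of -0.15 to 0.05 (limma, adjusted p = 0.324); with the median of each library set equal it was -0.16 (adjusted p = 0.00693). The WT level was 5.64-fold lower without glutamine, a log2 change of -2.05 ± 0.045 (SE; limma, adjusted p = 6.62e-14). Between the lines the responses differed by 2.00 ± 0.064 (limma, adjusted p = 8.59e-12). The order of the lines turned with the medium: p53-null cells had 1.69-fold the WT level without glutamine and 31.4% of it in complete medium.

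Lpar2, the second EDG-type receptor, went the other way in WT cells. It lies on chromosome 8 at 69822429 to 69831102 (plus strand). It had 5.19, 5.69 and 5.45 RPKM in p53-null libraries without glutamine and 5.02, 4.94 and 4.80 RPKM in p53-null libraries in complete medium. In WT cells it had 3.90, 4.33 and 4.79 RPKM without glutamine and 2.57, 2.56 and 2.60 RPKM in complete medium. Neither pair of media overlapped, though the p53-null groups were close. The log2 change was 0.12 ± 0.050 in p53-null cells (SE; limma, adjusted p = 0.0418) and 0.57 ± 0.050 in WT cells (limma, adjusted p = 1.36e-07). The p53-null call was lost under both other scalings, with 0.1 added in place of 1, with no filter and in 9 of 12 fits without 1 library. The difference of the responses, p53-null minus WT, was -0.45 ± 0.071 (limma, adjusted p = 5.59e-05).

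Lpar3, the third EDG-type receptor, was close to 0 everywhere. It lies on chromosome 3 at 146220963 to 146286186 (plus strand) and did not pass the filter of at least 1 RPKM in at least 3 libraries. It was listed at 0 in 2 of 3 p53-null libraries in each medium and in all 3 WT libraries without glutamine, and had 0.0102, 0.00974 and 0.0196 RPKM in WT libraries in complete medium. An exact two-sided permutation test over the 3 against 3 libraries gave p = 1.0 in p53-null cells and p = 0.1 in WT cells, the smallest it can give. Lpar5, the P2Y-type receptor outside the 6 genes, lay between 0 and 0.0329 RPKM.

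**Figure D3:**
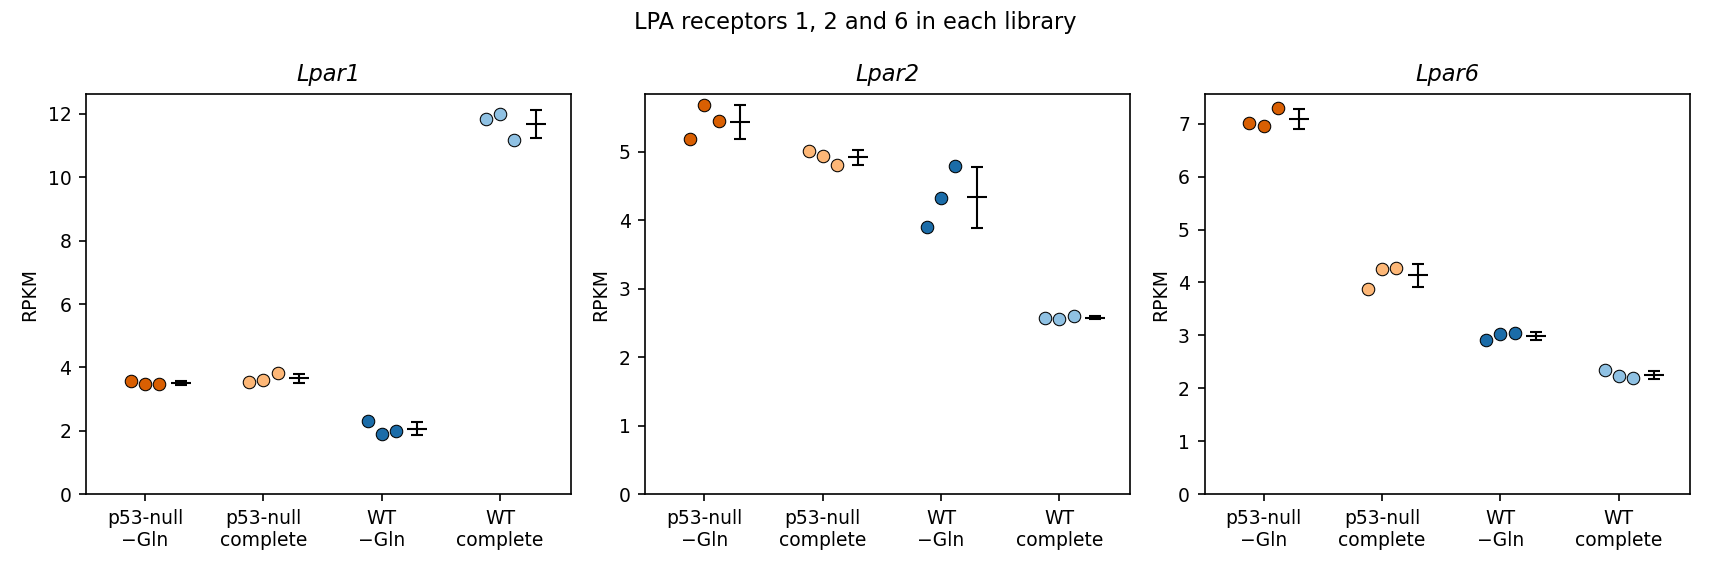
RPKM of Lpar1, Lpar2 and Lpar6 in each of the 12 libraries; points are libraries, and the lines beside them mark the group mean and SD (-Gln is glutamine-free). Lpar1 is highest in WT cells in complete medium at 11.2 to 12.01 RPKM, and Lpar6 is highest in p53-null cells without glutamine at 6.96 to 7.31 RPKM.

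Lpar4, a P2Y-type receptor, was the most abundant LPA receptor of the WT line and nearly absent from the p53-null line. It lies on chromosome X at 106920625 to 106933900 (plus strand). Its promoter is shown because Lpar4 is the receptor that separates the lines most, X:106920375-106920674 (plus strand, RefSeq, GRCm38.p6). Capitals mark CCAAT boxes (CCAAT or ATTGG on the other strand) and a GC box, GGGCGG, which overlaps the third CCAAT box.
Lpar4: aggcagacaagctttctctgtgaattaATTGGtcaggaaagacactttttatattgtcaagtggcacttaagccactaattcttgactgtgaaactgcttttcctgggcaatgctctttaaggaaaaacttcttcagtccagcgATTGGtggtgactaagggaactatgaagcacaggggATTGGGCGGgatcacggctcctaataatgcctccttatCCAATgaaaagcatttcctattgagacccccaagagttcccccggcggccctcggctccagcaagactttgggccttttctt
The window holds 6 CpG and 4 CCAAT boxes. Of all 32851 promoters of that length, 37.4% hold at least 1 CCAAT box and 1.06% hold 4 or more. Matches to AP-1 (TGANTCA), CRE (TGACGTCA), CARE (TGATGNAAN) and E-box (CACGTG) letters were also searched on both strands and are not in this window. Of all promoters, 7.81% hold the AP-1, 1.79% the CRE, 3.95% the CARE and 7.15% the E-box letters.

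Lpar4 had 0.0419, 0.0449 and 0.0886 RPKM in p53-null libraries without glutamine and 0.0224, 0.0252 and 0.0235 RPKM in p53-null libraries in complete medium. In WT cells it had 16.6, 15.1 and 15.8 RPKM without glutamine and 13.5, 13.6 and 13.1 RPKM in complete medium. Every p53-null library lay far below every WT library, at a mean of 0.369% of the WT level without glutamine and 0.177% in complete medium. In p53-null cells the log2 change was 0.05 (limma, adjusted p = 0.227), 0.35 with 0.1 added in place of 1 (adjusted p = 0.00424), 0.09 after quantile normalization (adjusted p = 0.0396) and -0.06 with library medians set equal (adjusted p = 0.138). Within WT cells the media did not overlap, and Lpar4 rose without glutamine by a log2 change of 0.22 ± 0.035 (SE; limma, adjusted p = 5.01e-05). Between the lines the responses differed by -0.18 with 1 added and by 0.11 with 0.1 added, so no direction is read from it either. Like Enpp2, Lpar4 passed the filter through WT libraries alone.

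Lpar6, a P2Y-type receptor known in people for its part in hair growth, rose without glutamine in both lines, and its level was higher in p53-null cells in both media. It lies on chromosome 14 at 73237895 to 73243294 (plus strand), inside the retinoblastoma gene Rb1, which runs on the other strand. Its promoter, 14:73237641-73237940 (plus strand, RefSeq, GRCm38.p6), is shown as the promoter of the receptor that rose in both lines. It holds 1 CpG and no match to the 6 motifs searched, so no letter is capital.
Lpar6: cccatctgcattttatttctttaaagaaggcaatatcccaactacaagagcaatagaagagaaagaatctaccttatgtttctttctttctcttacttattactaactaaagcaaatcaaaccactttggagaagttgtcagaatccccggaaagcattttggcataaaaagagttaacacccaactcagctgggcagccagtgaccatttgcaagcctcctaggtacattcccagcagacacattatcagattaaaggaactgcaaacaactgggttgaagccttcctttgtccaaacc

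Lpar6 had 7.01, 6.96 and 7.31 RPKM in p53-null libraries without glutamine and 3.88, 4.25 and 4.27 RPKM in p53-null libraries in complete medium. In WT cells it had 2.91, 3.02 and 3.05 RPKM without glutamine and 2.34, 2.23 and 2.20 RPKM in complete medium. The 4 groups did not overlap. The log2 change was 0.66 ± 0.036 in p53-null cells (SE; limma, adjusted p = 1.74e-09) and 0.29 ± 0.036 in WT cells (limma, adjusted p = 3.83e-06). Between the lines the responses differed by 0.36 ± 0.050 (limma, adjusted p = 1.79e-05), and by 0.05 after quantile normalization (adjusted p = 0.348).

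The library kit does not mark strand, so reads of Lpar6 and Rb1 cannot be told apart where their exons overlap, which is 408 of the 5400 exon bases of Lpar6 (7.56%). The rest of Lpar6 lies in Rb1 introns, so reads of unspliced Rb1 RNA could fall there too, which was not tested. The Rb1 level is a value per gene that does not measure unspliced RNA apart, so nothing on that is read from it. Rb1 averaged 4.04 ± 0.235 RPKM in p53-null cells without glutamine and 4.10 ± 0.0685 RPKM in the same cells in complete medium. In WT cells Rb1 averaged 7.53 ± 0.205 RPKM without glutamine and 9.30 ± 0.258 RPKM in complete medium (SD, n = 3 each). Its log2 response was -0.02 ± 0.035 in p53-null cells (limma, adjusted p = 0.62) and -0.27 ± 0.035 in WT cells (limma, adjusted p = 7.8e-06). Enpp2 shares 5.97% of its exon bases with the opposite-strand gene Gm26684.

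Set side by side, the receptors gave each group its own make-up. The 5 receptors summed to 16.1 ± 0.261 RPKM in p53-null cells without glutamine, 12.7 ± 0.245 RPKM in the same cells in complete medium, 25.3 ± 0.778 RPKM in WT cells without glutamine and 29.9 ± 0.732 RPKM in WT cells in complete medium (SD, n = 3 each). In p53-null cells without glutamine the order was Lpar6 at 44.1%, Lpar2 at 33.8% and Lpar1 at 21.8% of the sum. In p53-null cells in complete medium it was Lpar2 at 38.6%, Lpar6 at 32.4% and Lpar1 at 28.7%.

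WT cells had a different leading receptor. Lpar4 made up 62.7% of the sum without glutamine, ahead of Lpar2 at 17.2%, Lpar6 at 11.9% and Lpar1 at 8.19%. In complete medium Lpar4 made up 44.8% and Lpar1 39.0%, ahead of Lpar2 at 8.62% and Lpar6 at 7.54%. Lpar4 was 0.362% of the sum in p53-null cells without glutamine and 0.186% in complete medium. Within each group the libraries of neighbouring receptors in these orders did not overlap.

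**Figure D4:**
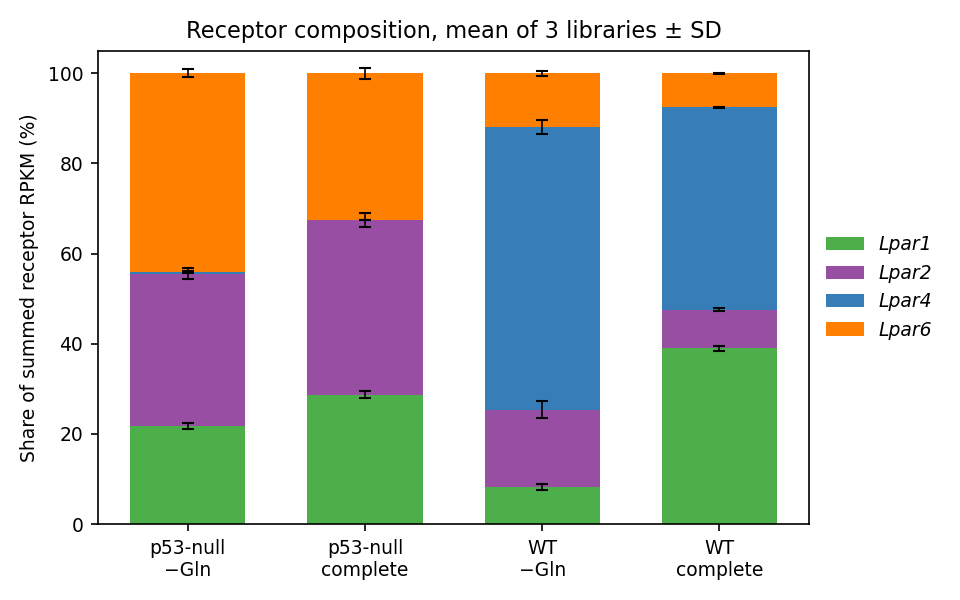
Share of each receptor in the summed RPKM of the 5 LPA receptors (percent), by group, with p53-null groups left of WT groups; values are means of 3 libraries, error bars are SD, and Lpar3, at 0.0444% or less, is not drawn. Lpar4 leads in WT cells at 62.7% and 44.8%, and lies under 1% in p53-null cells.

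In p53-null cells, of the 5 genes that passed the filter, Lpar2 and Lpar6 were called higher without glutamine. Enpp2, under 1 RPKM in both media there, was called lower. Of all 11461 genes tested, 82.0% were called in that comparison, 32.0% lower and 50.0% higher. In WT cells 2 genes were called lower (Enpp2, Lpar1) and 3 higher (Lpar2, Lpar4, Lpar6), against 90.1% of all genes called, 44.0% lower and 46.0% higher. A call is common in these data, so that the counts alone say little about these genes. The difference of the responses to withdrawal, p53-null minus WT, was called for Lpar1, Lpar2 and Lpar6, against 84.9% of all genes, while the sign for Enpp2 and Lpar4 depended on the scale. The median log2 change over all genes was 0.083 in p53-null cells and 0.011 in WT cells.

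**Figure D5:**
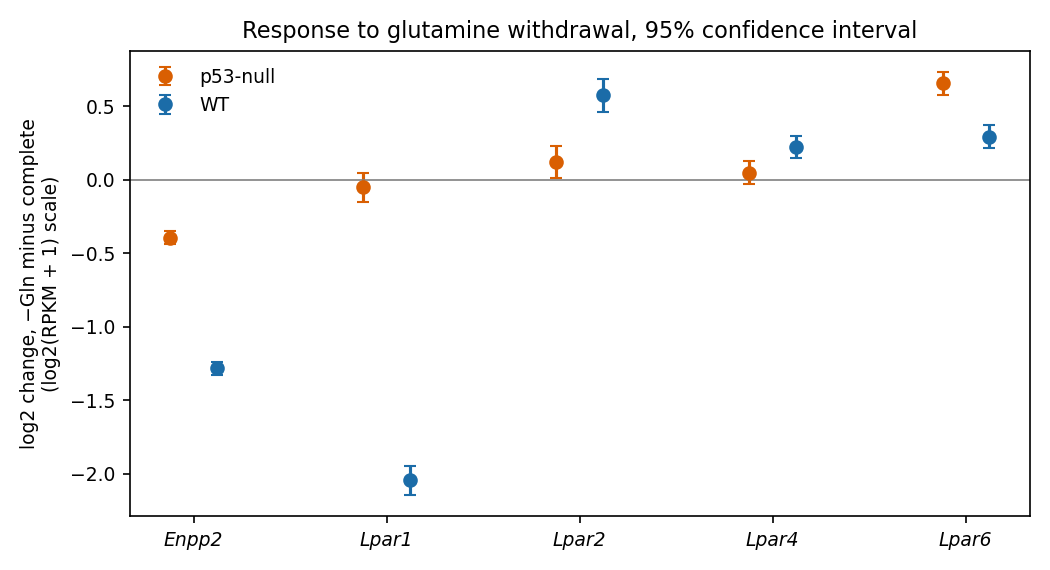
Log2 change without glutamine (glutamine-free minus complete, log2(RPKM + 1) scale) of the 5 tested genes in p53-null cells (left of each pair) and WT cells; error bars are 95% confidence intervals. The change of Lpar1 is -0.05 in p53-null and -2.05 in WT cells, and that of Lpar6 is 0.66 in p53-null and 0.29 in WT cells.

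Of the enzymes that make LPA or its precursors, 4 besides Enpp2 were tested, of which 3 were higher and 1 lower in p53-null cells without glutamine, and 3 were higher in WT cells. Of all genes, 82.0% were called in p53-null and 90.1% in WT cells. Gdpd1, a lysophospholipase D that works inside the cell, averaged 32.7 ± 0.292 RPKM in p53-null cells without glutamine, 23.1 ± 0.243 RPKM in the same cells in complete medium, 17.5 ± 0.635 RPKM in WT cells without glutamine and 4.65 ± 0.339 RPKM in WT cells in complete medium (SD, n = 3 each). It rose without glutamine in both lines, by a log2 change of 0.48 in p53-null cells and 1.71 in WT cells (limma, adjusted p = 6.38e-08 and 5.58e-14). Pla2g6, a phospholipase A2 that makes lysophospholipids, rose by 0.46 in p53-null cells (limma, adjusted p = 1.72e-07); its WT value of 0.10 (adjusted p = 0.0324) lost its call in 4 of 12 fits without 1 library. Without WT complete replicate 1, WT complete replicate 3 or WT glutamine-free replicate 3, the count of enzymes higher in WT cells was 1.

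Of the other members of the autotaxin (ENPP) family, 3 were tested, with 2 lower in p53-null cells, and 1 higher and 2 lower in WT cells. Of all genes, 32.0% were lower in p53-null cells, and 46.0% were higher and 44.0% lower in WT cells. Enpp1, an ectoenzyme that makes pyrophosphate from ATP, had lower means without glutamine in both lines. Enpp1 averaged 0.209 RPKM in p53-null cells without glutamine and 0.626 RPKM in complete medium, and 0.256 RPKM in WT cells without glutamine and 2.56 RPKM in complete medium. The log2 change was -0.43 in p53-null cells and -1.50 in WT cells (limma, adjusted p = 5.47e-08 and 5.58e-14). Enpp1 passed the filter on low values through its WT libraries in complete medium alone, so these p-values are not read as support. Enpp4 changed by -0.20 in p53-null and 0.20 in WT cells (limma, adjusted p = 0.000759 and 0.000755).

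The genes that break down or re-acylate LPA were all 11 tested, with 4 higher and 6 lower in p53-null cells, and 4 higher and 7 lower in WT cells, near the 82.0% and 90.1% of all genes that were called in p53-null and WT cells. Plpp3, a lipid phosphate phosphatase of the cell surface that dephosphorylates LPA, averaged 2.66 ± 0.0372 RPKM in p53-null cells without glutamine and 4.55 ± 0.236 RPKM in complete medium, and 2.03 ± 0.0852 RPKM in WT cells without glutamine and 18.0 ± 0.285 RPKM in complete medium (SD, n = 3 each). It fell in both lines, by a log2 change of -0.60 in p53-null cells and -2.65 in WT cells (limma, adjusted p = 2.51e-09 and 3.43e-16). Agpat4, an acyltransferase that turns LPA into phosphatidic acid, rose by 0.20 in p53-null cells and changed by -1.82 in WT cells (limma, adjusted p = 0.00106 and 1.92e-13). The p53-null call of Agpat4 was not rerun under the other scalings. Their median shift of that response over all genes was -0.106 (median centring) and -0.0891 (quantile normalization). The median change of the list was -0.19 in p53-null cells and -0.30 in WT cells.

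In the S1P pathway, whose receptors are the nearest relatives of LPA1 to LPA3, 7 of 11 genes were tested, with 5 higher and 1 lower in p53-null cells (2 lower with library medians set equal) and 4 higher and 3 lower in WT cells. Such counts are near the 82.0% of all genes called in p53-null and the 90.1% called in WT cells. S1pr1, an S1P receptor, was near 0 in the p53-null line, at 0.00749 RPKM in p53-null and 2.32 RPKM in WT cells without glutamine. In complete medium it was 0.0283 RPKM in p53-null and 7.98 RPKM in WT cells. Spns2 and Sphk1 of the same list were higher in p53-null cells. Spns2 averaged 2.42 RPKM in p53-null and 0.129 RPKM in WT cells without glutamine, and 2.06 and 0.0365 RPKM in complete medium. Sphk1 averaged 3.49 RPKM in p53-null and 0.334 RPKM in WT cells without glutamine, and 4.37 and 1.46 RPKM in complete medium. S1pr1 fell in WT cells without glutamine, by a log2 change of -1.44 ± 0.036 (limma, adjusted p = 2.24e-13). S1pr2 rose by 0.64 in p53-null cells and changed by -0.33 in WT cells (limma, adjusted p = 3.71e-09 and 1.78e-06). Between the lines, 4 of the 7 tested genes were called higher and 3 lower in p53-null cells in each medium. Of all 11461 genes tested, 5890 were higher and 4584 lower without glutamine, and 5546 and 4872 in complete medium.

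Of the genes that SRF and YAP are known to drive in fibroblasts after LPA, 14 of 16 were tested, and in p53-null cells 7 of these were lower and 6 higher without glutamine. Of all genes, 32.0% were lower and 50.0% higher there. In WT cells 13 were lower and 1 higher, against 44.0% and 46.0% of all genes. The median log2 change of the list was -0.11 in p53-null cells and -1.01 in WT cells. Acta2, smooth muscle actin, fell in both lines, by -3.08 in p53-null cells and -3.25 in WT cells on the log2 scale (limma, adjusted p = 4.68e-16 and 8.39e-18). Cnn2, a calponin, changed by -1.53 in p53-null and -3.64 in WT cells (limma, adjusted p = 1.44e-14 and 6.79e-19).

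Other SRF and YAP targets moved in opposite directions in the 2 lines. Cyr61, a secreted matrix protein, averaged 59.7 ± 2.02 RPKM in p53-null cells without glutamine and 40.8 ± 0.710 RPKM in complete medium, and 23.4 ± 0.575 RPKM in WT cells without glutamine and 117 ± 0.943 RPKM in complete medium (SD, n = 3 each). Its log2 change was 0.54 in p53-null and -2.27 in WT cells (limma, adjusted p = 3.03e-10 and 7.49e-17). Egr1, an immediate early transcription factor, changed by 1.40 in p53-null and -1.14 in WT cells (limma, adjusted p = 1.98e-12 and 2.55e-12), and Ctgf, another secreted matrix protein, by 0.66 in p53-null and -1.30 in WT cells (limma, adjusted p = 1.49e-10 and 4.27e-14). Ankrd1, a muscle ankyrin repeat protein, was the 1 gene of the list that rose in WT cells, by 1.40 (limma, adjusted p = 4e-13). The list changes are set here beside those of the receptors, and any link between them was not tested.

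Over the 12 libraries, the tested genes whose log2(RPKM + 1) followed Enpp2 most closely were Parvb, Sim2, Irx1, Cspg4 and Mmp16, with Pearson r between 0.9992 and 0.9996. For Lpar1 they were Aplp2, Cyp51, Tnfaip8, Snhg18 and Stac2, with r between 0.995 and 0.998. The libraries fall into clusters by line and medium, so each r describes 4 group levels and is given with no p. For Enpp2 it mostly reflects the gap between the lines, on which Enpp2 was chosen. Mmp16, unlike Enpp2, was not lower without glutamine in p53-null cells, at 0.0247 RPKM against 0.0233 RPKM in complete medium.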

How the data were processed

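RNA was read from 12 samples, 3 in each of 4 groups, as per the labels' protocols with libraries made from 0.5 ug of total RNA. The authors deposited 1 table of RPKM values per gene and sample, for which the submitters' processing notes name the tools Partek, HISAT2 2.0.4 and CASAVA 1.8 and the build mm10. The order of these steps and the counting rules were not stated. Since RPKM is scaled to the library, very abundant genes press down the values of the rest, and the read numbers are not kept. From the table, 11461 of 19439 entries that reached 1 RPKM in 3 or more of 12 samples were fitted as log2(RPKM + 1) with limma 3.58.1 (R 4.3.3, trend), on 4 group means. Each comparison had its own Benjamini-Hochberg adjustment, and a gene was called at an adjusted p under 0.05. The log scale understates changes of genes under 1 RPKM. The fit was run on simulated data for the WT medium comparison only. Few genes were changed there and none near 0, unlike in these data, so nothing is concluded from it here. The members and lists were chosen with earlier results of these data known.

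Named genes were the 6 members, Trp53, Rb1, the 5 genes most like Enpp2 and like Lpar1 by Pearson r, the tested genes within 1 Mb of Enpp2, and up to 2 called genes per list and comparison with the largest change, whose higher group averaged 2 RPKM or more and whose groups did not overlap (not asked of the difference of responses). Some genes are given also in comparisons that did not choose them, such as Ctgf, Agpat4, Ankrd1, Cnn2, Enpp1, S1pr2, Cyr61 and Egr1. Not every gene that the rule picked is described. The marker genes, Lpar5, Itm2a and the other genes near Lpar4 were named after their values were seen. The counts of 1 gene list are not reported here. Of the 6 members 5 matched a RefSeq promoter entry. Gene coordinates are from GENCODE M21 (mm10). Alternatives were another pseudocount, no filter, median centring, quantile normalization, a replicate block, only the 2 groups compared, and leaving out each library.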

Additional observations from a re-analysis of the deposited data

Results flagged for a closer look

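The response to glutamine withdrawal was called different between the lines in the main fit for each of the following. The test was of the difference itself (p53-null minus WT, limma on log2(RPKM + 1)). Among the autotaxin and receptor genes the difference was 0.89 for Enpp2, 2.00 for Lpar1, -0.45 for Lpar2, -0.18 for Lpar4 and 0.36 for Lpar6. Among genes that make LPA or belong to the ENPP family it was -1.23 for Gdpd1, 0.36 for Pla2g6, 1.07 for Enpp1 and -0.40 for Enpp4. Among genes that use up LPA it was 2.05 for Plpp3 and 2.02 for Agpat4. For the S1P receptors it was 1.41 for S1pr1 and 0.97 for S1pr2. S1pr1 averaged 0.00749 RPKM in p53-null cells without glutamine and 0.0283 RPKM in complete medium. With 1 added, its difference therefore follows the WT change of -1.44. The difference was 1.58 for Gnai2, a Gi protein subunit, 1.37 for Plcb3, a phospholipase C, 2.81 for Cyr61 and 2.55 for Egr1. Enpp1 passed the filter through WT libraries in complete medium alone, so its difference is not read as support. For Enpp2 and Lpar4 the sign turned with 0.1 added in place of 1, so no direction is read for them. For the others the adjusted p lay between 1.16e-15 for Gnai2 and 5.59e-05 for Lpar2. After quantile normalization the difference was 0.051 for Lpar6 and -0.065 for Lpar4, and neither passed (limma, adjusted p = 0.348 and 0.239). Of all genes tested, 84.9% were called in this comparison.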

How the results depend on the processing

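With 0.1 added in place of 1, the difference of the responses turned to -0.48 for Enpp2 and 0.11 for Lpar4, the p53-null response of Lpar4 became 0.35 and passed, and that of Lpar2 (0.14) no longer passed. The Enpp2 line difference was then -10.52 without glutamine and -10.04 in complete medium; these follow from the pseudocount, as the p53-null levels lie under 1 RPKM. Median centring gave p53-null responses of -0.16 for Lpar1 (passed), 0.015 for Lpar2 (not passed) and -0.058 for Lpar4 (turned), and an Enpp2 line difference of -7.72 without glutamine. Quantile normalization gave p53-null responses of 0.070 for Lpar2 (not passed) and 0.086 for Lpar4 (passed), differences of -0.065 for Lpar4 and 0.051 for Lpar6 (neither passed), and Enpp2 line differences of -7.48 without glutamine and -8.27 in complete medium. With no filter the Lpar2 p53-null response (0.12) did not pass. Leaving out 1 library gave it 0.093 to 0.15. Of the LPA-making enzymes, 1 more was lower in either line with no filter. Beyond the pseudocount, the cause was not tested. Median centring moved the median of all genes by -0.106 in the p53-null response and turned its split of 5732 higher and 3671 lower calls into 4525 and 4984.

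The values gave no sign that the replicate numbers pair the samples, though they cannot show how the libraries were handled. None of 18 same-number pairs correlated over 0.1 (r -0.106 to 0.088), and a library correlated best with its own number in 14 of 36 cases. With the replicate block 9385 genes were called in p53-null and 10322 in WT cells, against 9403 and 10321 without it, and no call of the 5 tested members changed. Leaving out 1 library gave 9161 to 9493 called genes in p53-null and 10173 to 10311 in WT cells. The deposited RPKM values carry no read totals, so what depth limits for Lpar3, and for Enpp2 and Lpar4 in p53-null cells, cannot be stated.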

Other observations

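Within 1 Mb of Lpar4, a window chosen after the values were seen, Itm2a, a transmembrane protein gene that starts 482.8 kb away, was listed at 0 in p53-null cells in both media, and averaged 1.97 ± 0.249 RPKM in WT cells without glutamine and 12.2 ± 0.482 RPKM in WT cells in complete medium (SD, n = 3 each). Lpar4 itself was higher in WT cells without glutamine. The other tested genes in the window, Atrx, Magt1, Cox7b, Atp7a, Pgk1 and 2610002M06Rik, were not near 0 in p53-null cells. Their log2(RPKM + 1) line differences, p53-null minus WT, ran between -0.51 and 0.41 without glutamine. In complete medium they ran between -0.88 and 0.21.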
